A study of Mus musculus with 14 samples.

Results

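T cell and cytotoxic lymphocyte transcripts were followed in 14 bulk RNA-seq libraries of mouse liver. The 10 genes were taken by symbol from the deposited count table, which holds 45706 genes, and all 10 were found: Cd3d, Cd3e and Cd3g (signalling chains of the T cell receptor), Cd4, Cd8a and Cd8b1 (coreceptors), Pdcd1 (the inhibitory receptor PD-1), and Prf1, Gzmb and Nkg7 (the killing machinery). All 10 were among the 15674 genes with enough reads to be tested. The mice were C57BL6/J males, 8 weeks old when the diets began. The chow group (4 libraries, replicates 1 to 4) was given a standard chow diet, and the MASH group (3 libraries, replicates 2, 3 and 4) a diet that models metabolic dysfunction-associated steatohepatitis, for 16 weeks. The C18:1 group (4 libraries, replicates 1 to 4) and the C18:1-leucine group (3 libraries, replicates 1, 2 and 4) stayed on the MASH diet and received oleic acid (OA in the labels) or oleic acid joined to leucine (OA-leu) for 6 further weeks. The design text also names a vehicle, but the sample titles do not say whether the MASH mice received it. The sources used here give no dose.

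The T cell receptor has no signalling tail of its own and passes its signal through the CD3 chains. CD4 marks helper and regulatory T cells and, in mice, some myeloid cells. CD8 marks cytotoxic T cells, and the alpha chain is also carried by some dendritic cells. Activated cytotoxic T cells and natural killer cells kill by releasing perforin, which opens the target membrane, and granzyme B, a protease that starts cell death inside the target. PD-1 rises on T cells after activation and stays high on exhausted and tissue-resident cells. In steatohepatitis, PD-1-bearing CD8 T cells are known to gather in the liver.

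Library depth ran from 33821890 to 51107243 counts, and the 10 genes together drew 84 to 845 of those counts in a library, so several values below rest on few reads. The hepatocyte transcript Alb was at 28825 to 70994 CPM (counts scaled to library size after TMM normalisation) in all libraries. In 2 libraries the treatment tag disagrees with the title: the tag of C18:1 replicate 1 names only the diet, which would place it in MASH, and the tag of C18:1-leucine replicate 1 names OA, which would place it in C18:1. Groups here follow the titles. C18:1 replicate 1 had the highest CPM of all 14 libraries for 7 of the 10 genes and was among the top 2 for all 10. C18:1 replicate 4, whose labels agree, was highest for the other 3 genes and in the top 2 for 9. Results for the 10 genes that involve the C18:1 or C18:1-leucine group are therefore given with and without the libraries in doubt. The labels do not say that the libraries of a group came from separate mice, so p-values measure the spread between these libraries.

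Cd3d, Cd3g and Cd3e lie side by side on chromosome 9 (GRCm38, GENCODE M21): Cd3g at 44969572 to 44980431 on the minus strand, Cd3d at 44981786 to 44987339 on the plus strand and Cd3e at 44998740 to 45009627 on the minus strand. The starts of Cd3d and Cd3g are 1355 bases apart and point away from each other. Cd8b1 (chromosome 6, 71322788 to 71337494, plus strand) and Cd8a (71373427 to 71379173, plus strand) are likewise neighbours, with starts 50639 bases apart. Cd4 lies at 124864692 to 124888221 on the minus strand of the same chromosome. Pdcd1 is on chromosome 1 (94038305 to 94052553, minus), Prf1 on chromosome 10 (61297833 to 61304680, plus), Gzmb on chromosome 14 (56258838 to 56262260, minus) and Nkg7 on chromosome 7 (43437073 to 43438249, plus). Values are for whole genes. Of the 10, Cd3e alone has exons that overlap another annotated gene, the antisense Gm48719, over 135 bases or 3.31% of their length.

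The 250 bases before the start of 4 genes are shown. Cd3d, Cd8a and Pdcd1 were chosen because they were lower in C18:1-leucine than in C18:1 (below), and Cd3g because it is the divergent neighbour of Cd3d and was not called there. They are RefSeq sequences on GRCm38.p6, read along each gene's strand: Cd3d chr9:44981536-44981785 (plus), Cd3g chr9:44980432-44980681 (minus), Cd8a chr6:71373177-71373426 (plus) and Pdcd1 chr1:94052554-94052803 (minus). Capitals mark matches, on either strand, to the letters CANNTG for the E-box that E proteins read, TGTGGT for RUNX, AGGAAG for ETS, AGATAA for the GATA factors and CTTTGA for TCF/LEF. No 2 matches overlap in these windows.
Cd3d: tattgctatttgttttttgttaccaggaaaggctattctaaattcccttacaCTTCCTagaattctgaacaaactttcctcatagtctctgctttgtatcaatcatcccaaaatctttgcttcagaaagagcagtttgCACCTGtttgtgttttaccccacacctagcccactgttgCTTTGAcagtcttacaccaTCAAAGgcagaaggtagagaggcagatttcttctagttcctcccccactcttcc
Cd3g: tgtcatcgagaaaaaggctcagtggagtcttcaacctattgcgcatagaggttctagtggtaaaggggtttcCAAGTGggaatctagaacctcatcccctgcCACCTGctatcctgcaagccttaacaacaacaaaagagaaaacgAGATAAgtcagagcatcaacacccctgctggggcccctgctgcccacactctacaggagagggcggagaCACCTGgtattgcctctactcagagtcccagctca
Cd8a: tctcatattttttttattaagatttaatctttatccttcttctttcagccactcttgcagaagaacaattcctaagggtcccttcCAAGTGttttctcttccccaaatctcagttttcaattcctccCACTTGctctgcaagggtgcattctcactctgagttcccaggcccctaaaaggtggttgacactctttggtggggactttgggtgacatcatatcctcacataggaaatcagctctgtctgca
Pdcd1: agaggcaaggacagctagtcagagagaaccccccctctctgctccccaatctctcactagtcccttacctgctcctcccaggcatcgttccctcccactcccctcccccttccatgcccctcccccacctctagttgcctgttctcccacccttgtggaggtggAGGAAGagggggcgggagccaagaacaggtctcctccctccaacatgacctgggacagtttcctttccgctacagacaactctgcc

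The Cd3d window holds 1 E-box, 1 ETS and 2 TCF/LEF matches, the Cd3g window 3 E-box and 1 GATA matches, the Cd8a window 2 E-box matches, and the Pdcd1 window 1 ETS match. RefSeq windows were found for 8 of the 10 genes, all but Cd4 and Cd8b1. Of those 8, 7 held an E-box, against 66.2% of all 32851 promoter windows of this length. An ETS match stood in 5 of 8 (29.5% of all windows), a RUNX match in 3 (14%), a GATA match in 1 (9.99%) and a TCF/LEF match in 1 (13.8%). For Prf1 and Gzmb, bases just after the RefSeq start were not found in a GENCODE transcript of the gene, so their windows may be misplaced. Both of these windows held a RUNX match, and that of Prf1 also an ETS match. These are letter matches in 1 window per gene, and no binding was measured.

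**Figure D1:**
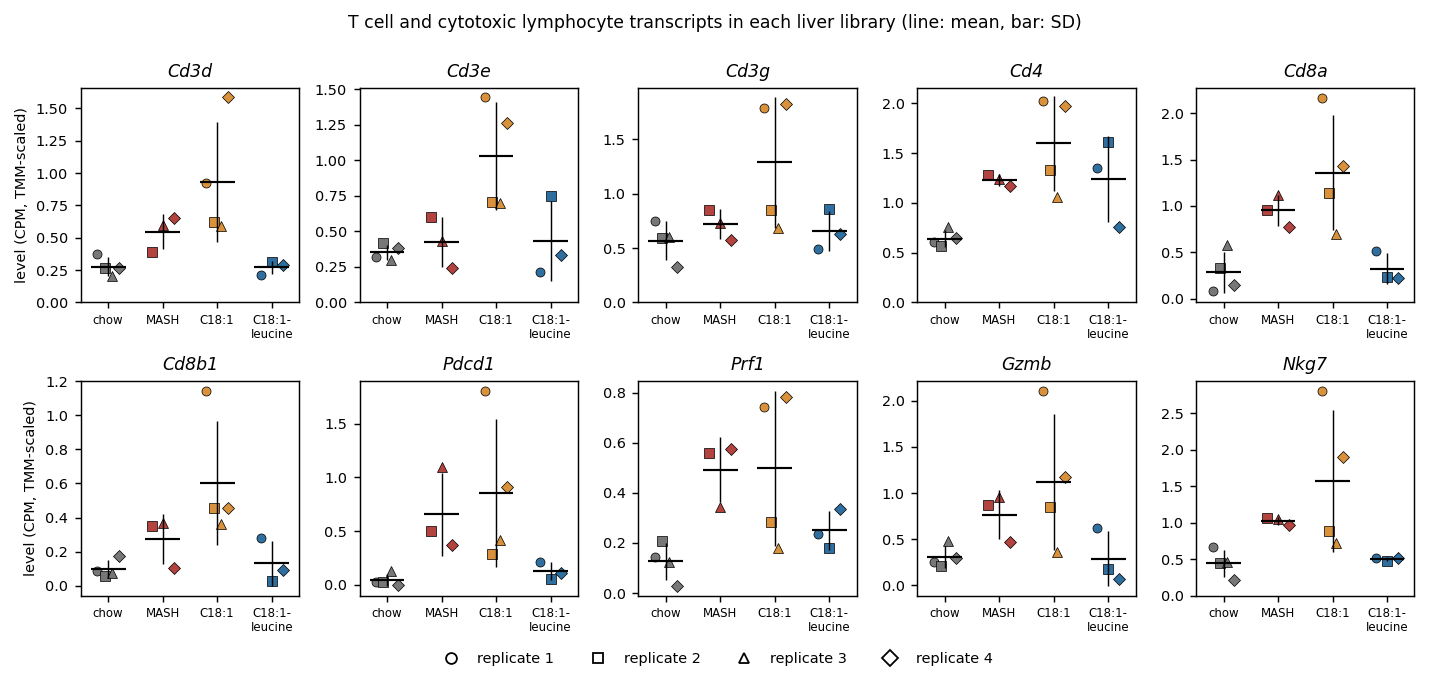
CPM (TMM-scaled) of the 10 genes, 1 panel per gene and 1 point per library, with marker shapes for the replicate number, a line at each group's mean and a bar of 1 SD. The C18:1 group has the highest mean in every panel and is spread widely, with replicates 1 and 4 on top for most genes, and the chow group lies lowest or level with C18:1-leucine.

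The MASH group was compared with chow to see which T cell and killing genes differed with the diet. Pdcd1, Prf1, Cd8a and Cd4 rose, and the other 6 genes also had positive log2 fold changes that did not pass the test. In all, 4 of 10 were called higher and none lower in MASH (edgeR quasi-likelihood test, Benjamini-Hochberg adjusted p under 0.05 over all tested genes), where 20.4% of all tested genes were called higher. In 6 of 10 the MASH libraries all lay above the chow libraries (Cd3d, Cd4, Cd8a, Pdcd1, Prf1 and Nkg7), against 22.5% of all genes. The median log2 fold change of the 10 was 1.25, and that of all tested genes 0.00645. In bulk liver, fewer cells of a type and less RNA per cell cannot be told apart.

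Pdcd1 was at 0.0288, 0.0296, 0.126 and 0 CPM in chow replicates 1 to 4, which is 7 counts in all. In MASH replicates 2, 3 and 4 it was at 0.497, 1.10 and 0.368 CPM, or 90 counts. Every MASH library was above every chow library. The log2 fold change was 3.67 ± 0.86 (SE), or 12.7-fold, with a 95% interval of 1.82 to 5.51 on the log2 scale and an edgeR adjusted p of 0.00548. With so few chow counts the size of this fold is loosely known: the exact Poisson 95% interval of the single count in chow replicate 1 is 0.0253 to 5.57 counts, for counting error alone. Leaving out 1 library at a time kept Pdcd1 called in all 7 cases.

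Cd8a, the alpha chain of the CD8 coreceptor, was at 0.0863, 0.326, 0.579 and 0.147 CPM in chow and at 0.952, 1.12 and 0.778 CPM in MASH. Chow replicate 3 came nearest to the MASH range and the groups did not overlap. The log2 fold change was 1.70 ± 0.53 (edgeR adjusted p = 0.0226). Cd8b1, the beta chain carried by conventional cytotoxic T cells, was at 0.0863, 0.0593, 0.0755 and 0.177 CPM in chow. In MASH it was at 0.352, 0.366 and 0.102 CPM, so MASH replicate 4 fell inside the chow range. Its log2 fold change was 1.44 ± 0.71 (edgeR adjusted p = 0.129).

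Cd4 was at 0.604, 0.563, 0.755 and 0.648 CPM in chow and 1.28, 1.24 and 1.17 CPM in MASH. These were narrow groups with a clear gap, and the log2 fold change of 0.93 ± 0.29 passed (edgeR adjusted p = 0.0232). Prf1, which encodes perforin, was at 0.144, 0.208, 0.126 and 0.0294 CPM in chow and 0.559, 0.343 and 0.573 CPM in MASH. Its log2 fold change was 1.94 ± 0.57 (edgeR adjusted p = 0.0188). Each of Cd8a, Cd4 and Prf1 kept its call in 4 or 5 of the 7 fits that left out 1 library, with highest adjusted p-values of 0.0626, 0.0578 and 0.0606.

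None of the CD3 chains was called in this comparison, though the log2 fold change of Cd3d was close to that of Cd4. Cd3d was at 0.374, 0.267, 0.201 and 0.265 CPM in chow and 0.393, 0.595 and 0.655 CPM in MASH, a log2 difference of 0.98 ± 0.39 (edgeR adjusted p = 0.0624). Cd3e was at 0.316, 0.415, 0.302 and 0.383 CPM in chow and 0.600, 0.435 and 0.246 CPM in MASH, with MASH replicate 4 below all chow libraries. Cd3g was at 0.748, 0.593, 0.604 and 0.324 CPM in chow and 0.849, 0.732 and 0.573 CPM in MASH. The log2 fold changes of Cd3e and Cd3g were 0.27 (95% interval -0.70 to 1.24) and 0.34 (-0.50 to 1.18), so rises of more than 2-fold were not excluded by the intervals.

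Nkg7, a granule membrane protein of killer lymphocytes, was at 0.662, 0.445, 0.453 and 0.206 CPM in chow and 1.06, 1.05 and 0.962 CPM in MASH. The groups did not overlap, and the log2 fold change of 1.21 ± 0.45 narrowly missed the threshold (edgeR adjusted p = 0.0503). Gzmb was at 0.259, 0.208, 0.478 and 0.294 CPM in chow and 0.870, 0.961 and 0.471 CPM in MASH. MASH replicate 4 lay just under the highest chow library, and the log2 fold change was 1.29 ± 0.65 (edgeR adjusted p = 0.135). With groups taken from the treatment tags, which moves C18:1 replicate 1 into MASH, 7 of the 10 genes were called higher.

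**Figure D2:**
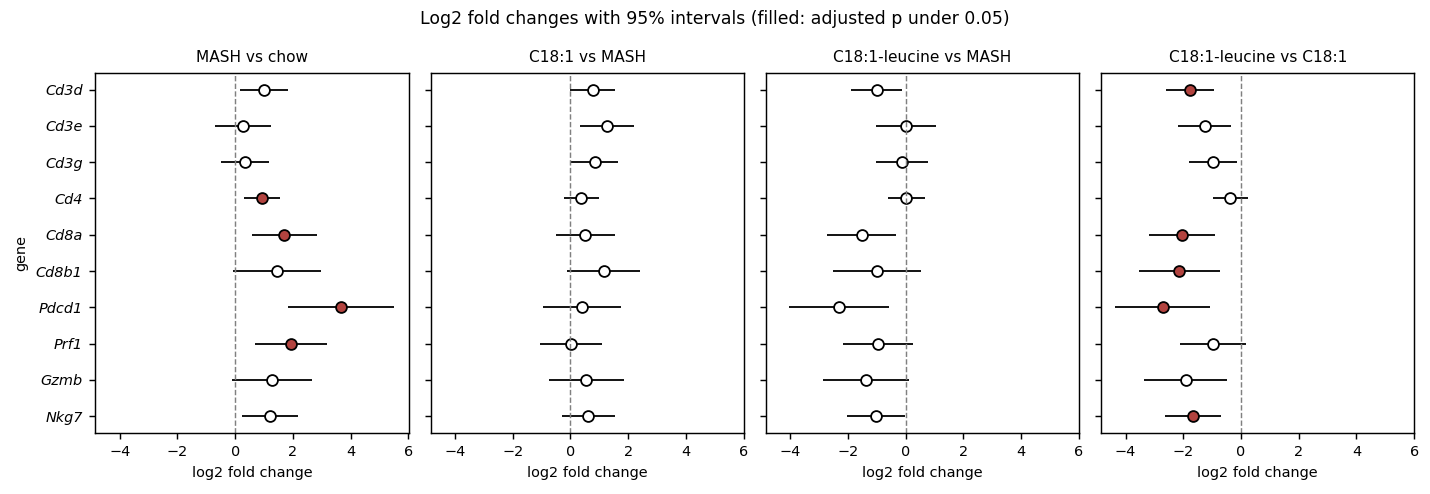
Log2 fold changes (x axis) of the 10 genes with 95% intervals, in 4 comparisons with 1 panel each. Filled points passed the adjusted p threshold: 4 genes in MASH vs chow, none in either comparison with MASH, and 5 in C18:1-leucine vs C18:1.

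Oleic acid was then compared with the MASH group. Any difference in vehicle, age or time on diet between the treated groups and the MASH or chow groups cannot be told apart from the treatment. No gene of the 10 was called (edgeR), and neither was any other tested gene (0% called in either direction). All 10 log2 fold changes were positive, from 0.02 for Prf1 to 1.27 for Cd3e, with a median of 0.59. Cd3e and Cd3g, 2 of 10, were under 0.05 before adjustment (edgeR adjusted p = 0.77 for both), where 6.18% of all genes reached that level. DESeq2 and limma voom also called 0 of 10, and over all genes DESeq2 called 3 and voom 0.

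Cd3e was at 1.44, 0.710, 0.701 and 1.26 CPM in C18:1 replicates 1 to 4. It was the 1 gene of 10 whose C18:1 libraries all lay above the MASH libraries, against 2.79% of all genes. Cd3g was at 1.78, 0.852, 0.683 and 1.83 CPM, reaching down into the MASH range in replicate 3. Cd3d was at 0.922, 0.625, 0.593 and 1.59 CPM, with replicates 2 and 3 inside the MASH range. Under the treatment tags, 7 of the 10 log2 fold changes in this comparison turned negative, Pdcd1 to -1.03 and Cd8a to -0.41. Without the 2 libraries in doubt, 2 of 10 were negative, those of Pdcd1 (-0.27) and Prf1 (-0.25). Neither fit called any of the 10 genes or any other gene.

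The leucine conjugate was compared with the MASH group, with the same limit. No gene of the 10 was called by edgeR (0.0702% of all tested genes were, in either direction), and none by DESeq2 or limma voom. Over all 15674 tested genes DESeq2 called 945 and voom 601, in either direction. DESeq2 gave no adjusted p for Cd8b1 and Prf1. Of the 10, 8 log2 fold changes were negative and the median was -0.998, against -0.013 for all genes. At an unadjusted p under 0.05 there were 4 of 10, where 18.1% of all genes reached that level: Pdcd1 (-2.31, edgeR adjusted p = 0.162), Cd8a (-1.53, edgeR adjusted p = 0.181), Cd3d (-1.01, edgeR adjusted p = 0.223) and Nkg7 (-1.03, edgeR adjusted p = 0.272). In those 4 and in Prf1, 5 of 10, every C18:1-leucine library lay below every MASH library, as in 12.0% of all genes. With the groups of the treatment tags all 10 log2 fold changes were negative, and without both libraries in doubt 8 were. Neither of these fits called any of the 10 genes or any other gene.

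Pdcd1 was at 0.215, 0.0519 and 0.112 CPM in C18:1-leucine replicates 1, 2 and 4, which is 17 counts in all against 90 in MASH. Its 95% interval against MASH, -4.03 to -0.59 on the log2 scale, lay below 0 before adjustment. Cd8a was at 0.516, 0.233 and 0.224 CPM and Nkg7 at 0.516, 0.467 and 0.514 CPM in the same libraries. The means of Cd4 and Cd3e were close to those of MASH, with wide intervals. Cd4 was at 1.35, 1.61 and 0.760 CPM, a log2 difference of 0.01 with a 95% interval of -0.63 to 0.65, and Cd3e was at 0.215, 0.752 and 0.335 CPM, a difference of 0.01 (-1.02 to 1.03).

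The 2 treatments were then compared directly. Oleic acid and its leucine conjugate differ by the amino acid joined to the acid. Cd3d, Cd8a, Cd8b1, Pdcd1 and Nkg7 were lower in C18:1-leucine than in C18:1, 5 of 10 called lower (edgeR), against 8.89% of all genes called lower. The same 5 had no overlap between the groups, as 14.2% of all genes did in that direction. All 10 log2 fold changes were negative, with a median of -1.71 (all genes -0.015).

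Pdcd1 was at 1.80, 0.284, 0.413 and 0.913 CPM in C18:1 replicates 1 to 4. Its lowest C18:1 library stood just above the highest C18:1-leucine library, and the log2 fold change was -2.71 ± 0.76, or 6.55-fold lower (edgeR adjusted p = 0.0304). Cd8a was at 2.17, 1.14, 0.701 and 1.43 CPM in C18:1, above the 0.516 CPM of the highest C18:1-leucine library, with a log2 fold change of -2.05 ± 0.53 (edgeR adjusted p = 0.0222). Cd8b1 was at 1.14, 0.455, 0.359 and 0.457 CPM in C18:1 and at 0.279, 0.0259 and 0.0894 CPM in C18:1-leucine. The second of those values is a single count, and the log2 fold change was -2.14 ± 0.65 (edgeR adjusted p = 0.0409).

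Cd3d was at 0.215, 0.311 and 0.291 CPM in C18:1-leucine, about the level of chow and below every C18:1 library. Its log2 fold change against C18:1 was -1.77 ± 0.39, or 3.41-fold lower, and had the smallest adjusted p of the 10 (edgeR, 0.0105). Nkg7 was at 2.81, 0.881, 0.719 and 1.89 CPM in C18:1, and its log2 fold change was -1.65 ± 0.45 (edgeR adjusted p = 0.0266). Cd3e (-1.26 ± 0.43, edgeR adjusted p = 0.0624), Gzmb (-1.92 ± 0.66, 0.0635) and Cd3g (-0.97 ± 0.38, 0.101) did not pass.

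Gzmb was at 2.11, 0.852, 0.359 and 1.17 CPM in C18:1 and at 0.623, 0.182 and 0.0671 CPM in C18:1-leucine, so that C18:1-leucine replicate 1 lay above C18:1 replicate 3. Prf1 was at 0.742, 0.284, 0.180 and 0.783 CPM in C18:1 and at 0.236, 0.182 and 0.335 CPM in C18:1-leucine, with a log2 difference of -0.97 ± 0.54 (edgeR adjusted p = 0.231). Cd4 was at 2.03, 1.34, 1.06 and 1.98 CPM in C18:1. Its log2 difference was the smallest of the 10, -0.37 with a 95% interval of -0.97 to 0.23.

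These 5 calls were sensitive to regrouping and to leaving out single libraries, including some whose labels do not disagree. With the groups of the treatment tags 0 of 10 were called, as in all genes of that fit, with 4 at an unadjusted p under 0.05. Without both libraries 0 of 10 were called, with 6 at an unadjusted p under 0.05. That fit called 487 of 15817 tested genes in either direction, against 2544 of 15674 in the main fit. Leaving out C18:1 replicate 1 alone left 1 call, as did leaving out C18:1 replicate 4 or C18:1-leucine replicate 4, and leaving out C18:1-leucine replicate 2 left 2. Over all genes those fits called 1237, 1238, 2449 and 756 in either direction, in that order. Cd3d was called in all 7 fits that left out 1 library, with adjusted p-values up to 0.0468. All 10 log2 fold changes stayed negative under the tags and without both libraries. Without both libraries the log2 fold changes of the 5 genes were -1.63 for Cd3d, -2.24 for Cd8a, -2.77 for Cd8b1, -2.66 for Pdcd1 and -1.24 for Nkg7. Fitting the 2 groups alone left 2 calls.

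**Figure D3:**
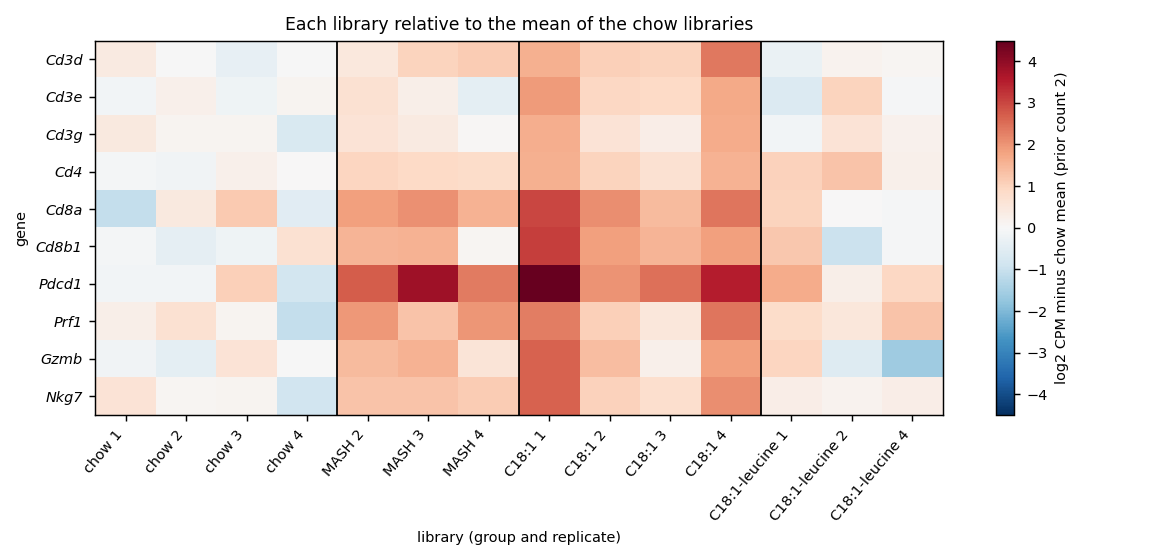
Log2 CPM of the 10 genes (rows) in each of the 14 libraries (columns) minus the mean of the chow libraries, red above and blue below. C18:1 replicates 1 and 4 carry the darkest columns, Pdcd1 is the darkest row in MASH and C18:1, and the C18:1-leucine columns are pale apart from single genes.

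Against chow, all 10 genes were higher in C18:1 (edgeR adjusted p from 0.00112 to 0.0212), where 27.8% of all tested genes were called higher. Log2 fold changes ran from 1.18 ± 0.36 for Cd3g to 4.07 ± 0.82 for Pdcd1, with a median of 1.83. In 7 of 10 the groups did not overlap, against 24.6% of all genes. The exceptions were Cd3g, Prf1 and Gzmb, for which C18:1 replicate 3 lay within the chow range. Without the 2 libraries in doubt 9 of 10 were called, and with the groups of the tags 6 of 10.

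Against chow, 1 of 10 genes was called higher in C18:1-leucine, Cd4 (0.94 ± 0.29, edgeR adjusted p = 0.0449), where 10.2% of all genes were called higher. Cd4 was also the 1 gene whose libraries did not overlap (16.8% of all genes). This call was lost without the 2 libraries in doubt, under the tags and in 6 of the 7 fits that left out 1 library, with adjusted p-values up to 0.161. The median log2 difference of the 10 was 0.24. The 9 other genes had 95% intervals that included 0, some of them wide: Cd3d -0.02 (-0.91 to 0.87), Cd3e 0.28 (-0.70 to 1.26) and Pdcd1 1.36 (-0.85 to 3.56). Comparisons that share a control group are not independent of each other.

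Per kilobase of exon, which puts genes on 1 scale, Nkg7 stood highest in every group, at 0.483 ± 0.204 CPM per kb in chow (SD, n = 4), 1.12 ± 0.0583 in MASH (n = 3), 1.72 ± 1.06 in C18:1 (n = 4) and 0.546 ± 0.0304 in C18:1-leucine (n = 3). Gzmb came second in chow, MASH and C18:1, at 0.216 ± 0.0821, 0.534 ± 0.182 and 0.782 ± 0.512 CPM per kb. Pdcd1 moved most in this order. It was last of the 10 in chow (0.0239 ± 0.0285 CPM per kb) and in C18:1-leucine (0.0654 ± 0.0427), but number 3 in MASH (0.339 ± 0.202) and number 4 in C18:1 (0.442 ± 0.357). In MASH the neighbours Pdcd1, Cd4 (0.305 ± 0.0146) and Cd3d (0.302 ± 0.0755) differed by less than the SD of Pdcd1.

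Ratios of counts within a library show which genes moved more than the CD3 chains. The summed CPM of Cd3d, Cd3e and Cd3g was 1.198 ± 0.203 in chow (SD, n = 4), 1.69 ± 0.194 in MASH (n = 3), 3.25 ± 1.37 in C18:1 (n = 4) and 1.37 ± 0.507 in C18:1-leucine (n = 3). Pdcd1 counts per summed CD3 count were 0.0200, 0.0233, 0.114 and 0 in chow and 0.270, 0.623 and 0.250 in MASH. All MASH values exceeded all chow values. In C18:1 the ratio was 0.435, 0.130, 0.209 and 0.195, and in C18:1-leucine 0.233, 0.0270 and 0.0893, where the ranges overlap. These ratios were not tested, and some rest on 1 or 2 Pdcd1 counts.

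Cd8a counts per Cd4 count were 0.143, 0.579, 0.767 and 0.227 in chow, 0.742, 0.907 and 0.667 in MASH, and 1.07, 0.851, 0.661 and 0.725 in C18:1. In C18:1-leucine they were 0.381, 0.145 and 0.294, below every MASH and C18:1 library and inside the chow range. Placing C18:1-leucine replicate 1 in C18:1, as its tag does, would make 0.381 the lowest value of that group and leave it above the remaining 2 C18:1-leucine libraries. Gzmb counts per summed CD3 count ran from 0.163 to 0.432 in chow, 0.319 to 0.545 in MASH, 0.182 to 0.507 in C18:1 and 0.0536 to 0.674 in C18:1-leucine. These ranges overlapped throughout.

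**Figure D4:**
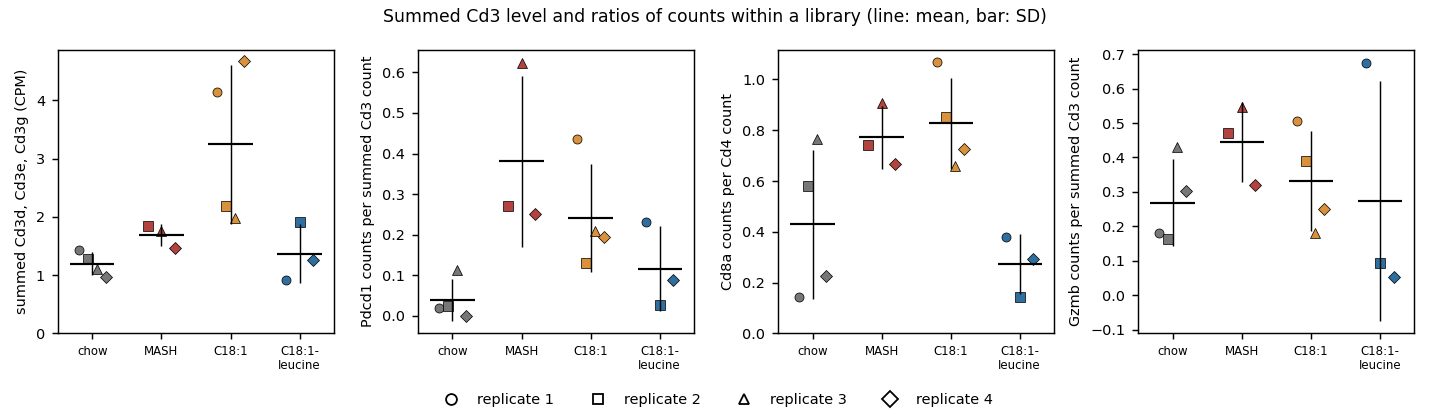
Summed CPM of the 3 CD3 genes, and counts of Pdcd1, Cd8a and Gzmb relative to other genes of the same library, with 1 point per library, a line at the mean and a bar of 1 SD. The Cd8a to Cd4 ratio of the 3 C18:1-leucine libraries (0.145 to 0.381) lies below all MASH and C18:1 libraries, and the Pdcd1 ratio of all MASH libraries (0.250 to 0.623) above all chow libraries.

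Across the 14 libraries the 10 genes varied together. The 45 pairwise Pearson correlations of log2 CPM ran from 0.456 (Cd3e with Prf1) to 0.924 (Cd8a with Pdcd1), with a median of 0.717. Without chow the median over 10 libraries was 0.665. The genes most like the mean of the 3 CD3 chains, among 15664 other tested genes, were Thy1 (r = 0.941), Gimap7 (0.921), Gbp4 (0.918), Trbc2 (0.914) and Myo7a (0.914). Thy1 encodes a surface protein of T cells and Trbc2 a constant region of the T cell receptor beta chain. Thy1 was at 0.629 to 1.06 CPM in chow, 1.26 to 1.78 in MASH, 1.56 to 3.54 in C18:1 and 0.902 to 1.07 in C18:1-leucine. Gbp4 (3.36 to 16.2 CPM) and Myo7a (20.3 to 34.4 CPM) lay above every CD3 chain in all 14 libraries. A high correlation with the CD3 mean therefore does not mark a gene as a T cell gene. These correlations describe libraries that share groups, depth and tissue composition.

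Other genes of the T cell pathways were taken from 4 lists. Which liver cells the transcripts of these lists came from was not tested. Of 18 tested genes of T cell receptor signalling, 7 were higher in MASH than in chow and none lower (edgeR), with a median log2 fold change of 1.01. Over all tested genes 20.4% were higher in that comparison, a share that also stands beside the next 3 lists. The 3 with the smallest p were Ptpn22, a phosphatase that restrains receptor signalling (1.45 ± 0.27, edgeR adjusted p = 0.00127), Trbc1 (1.31 ± 0.35, 0.0107) and Tcf7, a transcription factor of naive and stem-like T cells (0.66 ± 0.18, 0.0119). Without MASH replicate 4 this count was 4, and with the groups of the tags 14, of which 13 were higher. Against chow, 16 of 18 were higher in C18:1, where 27.8% of all tested genes were, led by Ptpn22 (1.68 ± 0.25), Cd5 (2.85 ± 0.51) and the kinase gene Lck (1.41 ± 0.26), and none was called in C18:1-leucine, where 10.2% of all tested genes were higher. The C18:1 count was 13 with the groups of the tags and 14 without both libraries in doubt. Zap70 was again negative in C18:1 against chow (-0.51 ± 0.29, edgeR adjusted p = 0.155).

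Of 14 tested genes of co-stimulation and checkpoints, which include ligands of PD-1, 7 were higher in MASH than in chow, with a median log2 fold change of 1.02. They were led by Havcr2, the checkpoint receptor TIM-3 (2.23 ± 0.27, edgeR adjusted p = 6.49e-05), Tnfrsf9, the co-stimulatory receptor 4-1BB (5.16 ± 0.78, 0.000308, from a chow mean of 0.00719 CPM), and Cd274, the PD-1 ligand PD-L1 (1.67 ± 0.31, 0.00156). Cd274 averaged 2.28 CPM in chow, 7.23 in MASH, 10.4 in C18:1 and 3.89 in C18:1-leucine. Against chow, 9 checkpoint genes were higher in C18:1, led by Havcr2 (2.64 ± 0.26, edgeR adjusted p = 4.77e-06), Cd274 (2.18 ± 0.30, 7.66e-05) and Tnfrsf9 (5.33 ± 0.74, 7.72e-05). This count was 7 with the groups of the tags and 8 without both libraries in doubt. In C18:1-leucine, 2 of 14 were higher than in chow, Havcr2 (1.75 ± 0.27, edgeR adjusted p = 0.00159) and Tnfrsf9 (3.25 ± 0.94, 0.0364). The Tnfrsf9 call was lost in 7 of 9 alternatives, while that of Havcr2 held in all 9. Havcr2 is also expressed by macrophages.

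Of 14 tested cytotoxic granule and effector genes, 7 were higher in MASH than in chow, with a median of 1.19. They were led by Srgn, the granule proteoglycan serglycin (0.99 ± 0.17, edgeR adjusted p = 0.000748), and the chemokine genes Ccl4 (2.52 ± 0.48, 0.00168) and Ccl5 (2.35 ± 0.46, 0.00189). Srgn averaged 7.41 CPM in chow and 14.7 in MASH, far above the Gzmb means of 0.310 and 0.767 CPM. Of the 13 genes of T cell recruitment and survival, 8 were higher, with a median of 1.39. They were led by the chemokine genes Cxcl16 (1.46 ± 0.18, edgeR adjusted p = 8.5e-05) and Cxcl10 (2.17 ± 0.35, 0.000572). Without MASH replicate 4 the recruitment count was 5.

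Against chow, 11 of 14 cytotoxic genes were higher in C18:1, led by Srgn (1.21 ± 0.16, edgeR adjusted p = 4.84e-05), Ccl4 (3.14 ± 0.46, 0.000106) and Ccl5 (2.98 ± 0.44, 0.000132). This count was 6 with the groups of the treatment tags and 7 without both libraries in doubt. Of the recruitment genes 10 of 13 were higher in C18:1, led by Cxcl16 (1.86 ± 0.17, edgeR adjusted p = 3.83e-06) and Cxcl10 (2.74 ± 0.34, 3.36e-05). In C18:1-leucine against chow, 1 cytotoxic gene was higher, Klrd1, which encodes the receptor chain CD94 (1.35 ± 0.39, edgeR adjusted p = 0.0347), and its call was lost in 6 of 9 alternatives. The 3 recruitment genes higher there were Cxcl16 (0.93 ± 0.18, edgeR adjusted p = 0.00582), the interleukin receptor gene Il7r (1.40 ± 0.37, 0.0255) and the chemokine gene Ccl19 (1.43 ± 0.41, 0.0362). Their calls were lost in 1, 4 and 5 of 9 alternatives. With the groups of the tags the cytotoxic count was 0 and the recruitment count 1.

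In C18:1-leucine against C18:1, 9 of 18 receptor signalling genes were lower (median -1.24), beside 8.89% of all tested genes, led by Cd5 (-2.63 ± 0.54, edgeR adjusted p = 0.0091), Trbc2 (-1.52 ± 0.35, 0.0131) and Cd2 (-1.48 ± 0.36, 0.0158). Of the checkpoint genes 6 of 14 were lower (median -0.89), led by the inhibitory receptor gene Tigit (-3.78 ± 0.82), Cd274 (-1.41 ± 0.32) and the co-stimulatory ligand gene Cd86 (-1.05 ± 0.27). Of the cytotoxic genes 7 of 14 were lower (-1.05), led by Srgn (-0.95 ± 0.17), Ccl5 (-2.08 ± 0.46) and Ccl4 (-1.77 ± 0.43). Of the recruitment genes 6 of 13 were lower (-0.93), led by Cxcl16 (-0.93 ± 0.18) and Cxcl10 (-1.69 ± 0.35). No gene of the 4 lists was higher. With the groups of the treatment tags these counts were all 0, and without both libraries in doubt they were 1, 2, 1 and 2. Leaving out C18:1-leucine replicate 2 alone gave 1, 0, 1 and 4. No gene of the 4 lists was called by edgeR in C18:1 or in C18:1-leucine against MASH. Before adjustment, 7, 1, 0 and 1 genes of the lists had p under 0.05 in C18:1 and 2, 4, 6 and 5 in C18:1-leucine, where 6.18% and 18.1% of all tested genes had. List calls by DESeq2 and limma voom were not kept. Over all genes DESeq2 and voom called 945 and 601 in C18:1-leucine against MASH, and 3 and 0 in C18:1 against MASH. The 4 list medians in edgeR were 0.61, 0.33, 0.47 and 0.54 for C18:1 and -0.51, -0.50, -0.79 and -0.44 for C18:1-leucine, in the order given above.

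Summed markers of several other cells also differed between these groups. Calls of single markers are from the main fit only. They were not repeated with the groups of the tags or without the libraries in doubt. The summed CPM of 8 natural killer cell markers, among them Ncr1, was 0.736 to 1.54 in chow, 1.57 to 2.56 in MASH, 2.10 to 3.39 in C18:1 and 1.504 to 2.03 in C18:1-leucine, and 2 of the 4 that could be tested were higher in MASH than in chow. In that comparison 20.4% of all tested genes were called higher. Nkg7, Gzmb and Prf1 are shared by natural killer cells and cytotoxic T cells. The 3 markers of regulatory T cells, which carry Cd3 and Cd4, summed to 0.554 to 0.711 CPM in chow, 0.849 to 1.64 in MASH, 0.909 to 3.09 in C18:1 and 0.709 to 1.36 in C18:1-leucine, with Foxp3 at 0 in 2 libraries. Ikzf2 makes up most of this sum, with 600 counts over all libraries against 129 for Il2ra and 74 for Foxp3. None of the 3 regulatory T cell markers was called in MASH against chow. In C18:1-leucine 2 were lower than in C18:1, where 8.89% of all tested genes were called lower. Of the gamma-delta T cell markers, Il17a was at 0 in all 14 libraries. The receptor genes Trdc, Trgc1 and Trgc2 of the same list drew 35, 64 and 88 counts over all libraries, and Cd163l1 drew 35.

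Macrophage markers, 6 genes, summed to 250.1 to 407 CPM in chow, 531 to 768 in MASH, 479 to 924 in C18:1 and 175 to 545 in C18:1-leucine. The summed 6 dendritic cell markers were 12.5 to 15.02, 15.9 to 18.8, 19.5 to 25.5 and 15.1 to 16.1 CPM in the same order. The 7 B cell markers summed to 2.68 to 6.02, 6.93 to 10.9, 7.89 to 12.4 and 5.19 to 7.26 CPM. The 6 hepatocyte markers went the other way, at 79322 to 100239 CPM in chow, 50538 to 57347 in MASH, 40115 to 49962 in C18:1 and 56633 to 81072 in C18:1-leucine. C18:1 replicate 1 had the lowest hepatocyte sum of all libraries. Between MASH and chow, 4 of 6 macrophage, 2 of 6 dendritic cell and 1 of 7 B cell markers were called higher and 5 of 6 hepatocyte markers lower (edgeR). Over all tested genes 20.4% were called higher and 15.1% lower there. Between C18:1-leucine and C18:1, 3 of 6 macrophage and 1 of 7 B cell markers were lower and 3 of 6 hepatocyte markers higher. In that comparison 8.89% of all tested genes were called lower and 7.34% higher. Of the natural killer cell markers 1 of 4 tested and of the bile duct markers 1 of 6 were also lower there. All 5 erythroid markers were higher, and 2 of 3 tested acinar pancreas markers. The erythroid markers, which mark red blood cells, summed to 453 to 730.4 CPM in chow, 450.4 to 492 in MASH, 264 to 751 in C18:1 and 624 to 1260 in C18:1-leucine. The part of these other cells in the values of the 10 genes was not tested.

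Bile duct markers, 6 genes, were uneven within groups, at 33.3 to 47.8 CPM in chow, 75.5 to 367 in MASH, 122 to 428 in C18:1 and 58.4 to 207 in C18:1-leucine. Spp1 makes up most of this sum, at 25.2 to 392 CPM, with each of the other 5 at no more than 14.1 CPM. Spp1 is also expressed by macrophages in fatty liver disease. C18:1 replicate 4, the other library with high T cell genes, had 137 CPM of them and C18:1 replicate 1 had 428. Acinar pancreas markers lay between 3.73 and 7.66 CPM except in the second library of the C18:1-leucine group (545 CPM) and of the chow group (147 CPM). Neutrophil markers stood at 52.7 CPM in C18:1-leucine replicate 1 and at 1.46 to 13.7 CPM elsewhere.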

How the data were processed

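RNA-seq of whole mouse liver was deposited as 1 table of estimated counts per Ensembl gene for 14 libraries. Per the labels' protocols, an RNeasy kit was used for RNA and the NEBNext Ultra II kit for libraries. The submitters' processing notes name the build GRCm38 and the tools HTSeq and DESeq2 (1.42.1), without saying what each did. The deposited estimated counts, of which 5.09 to 5.76% per library were not whole, were rounded. Genes passing filterByExpr (minimum count 10) were scaled by TMM and fitted with edgeR 4.0.16 (R 4.3.3, robust quasi-likelihood, all 14 libraries, groups from titles), and p-values were Benjamini-Hochberg adjusted over all tested genes. TMM factors ran from 0.856 to 1.21, so composition differed between libraries. Log2 CPM used a prior count of 2. No library pair within a group was a duplicate: chi-square per gene between libraries of a group was 25.0 to 168. Pairs across groups were not checked.

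Alternatives were RLE scaling, no filter, DESeq2 1.42.0, limma voom 3.58.1 with sample weights, the compared groups alone, a replicate block, groups from tags, both libraries with disagreeing tags left out, and each library left out. Those for the 4 lists were added after seeing the data. Scripts were tested on simulated data. The genes and lists were chosen with earlier results of these data known. All 10 genes are named, as are up to 3 genes per list and comparison with the smallest p among those called, and the 5 tested genes with the highest correlation with the CD3 mean. 1 gene that this rule would name is not reported here. All 137 list entries were matched, 131 by the table's symbols and 6 by GENCODE names. The gamma-delta T cell list is dominated by Sox13 (8.43 to 10.7 CPM) and summed to 8.53 to 10.9 CPM, the plasma cell list, carried by Sdc1 and Xbp1, to 288 to 515 CPM, and the erythroid list to 264 to 1260 CPM. The authors' own comparison tables name their groups by letters without a key and were not used.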

Additional observations from a re-analysis of the deposited data

Results flagged for a closer look

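Cd8b1 was at 1.14 CPM in C18:1 replicate 1, far from the other 3 C18:1 libraries (0.359 to 0.457 CPM) relative to the range of the group by Dixon's test. Of the 10 genes in the 2 groups of 4 libraries, 20 tests in all, this was the 1 value past the 95% critical limit, and chance flags about 1 in 20. C18:1 replicate 1 is a library whose treatment tag disagrees with its title.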

How the results depend on the processing

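Under RLE scaling, DESeq2 and limma voom the number of the 10 genes called stayed within 1.5 times its value in all 6 comparisons. The 1 call of C18:1-leucine against chow became 0 with no filter, with the compared groups alone, with a replicate block, with groups from the tags and without both libraries in doubt, and ran from 0 to 1 when 1 library was left out. The 5 calls of C18:1-leucine against C18:1 became 2 with the compared groups alone, 0 with groups from the tags and 0 without both libraries, and ran from 1 to 7 when 1 library was left out. With groups from the tags, MASH against chow gave 7 calls and C18:1 against chow 6. Of 893 single-gene values under alternatives, 766 kept direction and side of the threshold, 56 lost the call, 20 gained one and 51 changed sign, all of them values not called. The cause of these changes was not tested. Scalings moved the median of all genes to between -0.020 and 0.013.

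The values that changed sign were as follows. C18:1 against MASH with groups from the tags gave Cd3g -0.033, Cd8a -0.41, Cd8b1 -0.35, Pdcd1 -1.03, Prf1 -0.58, Gzmb -0.56 and Nkg7 -0.55. Without both libraries Pdcd1 was -0.27 and Prf1 -0.25, and with voom Prf1 was -0.19. C18:1-leucine against MASH gave Cd3e -0.34 and Cd4 -0.28 with the tags, and Cd3g 0.042 and Cd4 -0.059 without both libraries. C18:1-leucine against chow gave Cd3d 0.19, Cd8a -0.079 and Cd8b1 -0.65 with voom, 0.12, -0.34 and -0.71 with the tags, and 0.12, -0.34 and -0.71 without both libraries.

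With 1 library left out, C18:1-leucine against chow ran from -0.15 to 0.15 for Cd3d, -0.36 to 0.61 for Cd3e, -0.022 to 0.38 for Cd3g, -0.34 to 0.80 for Cd8a, -0.71 to 0.89 for Cd8b1, -1.34 to 0.38 for Gzmb and -0.066 to 0.43 for Nkg7. C18:1-leucine against MASH ran from -0.63 to 0.34 for Cd3e, -0.36 to 0.042 for Cd3g and -0.22 to 0.27 for Cd4, C18:1 against MASH from -0.27 to 0.99 for Pdcd1 and -0.29 to 0.31 for Prf1, and MASH against chow from -0.062 to 0.55 for Cd3e.

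Deviations of same-numbered libraries correlated between -0.245 and 0.423. In no comparison with 3 or more pairs were all above 0.1, but the pairs of C18:1-leucine against MASH were at 0.117 and 0.423. So few pairs per comparison cannot show whether replicate numbers pair the libraries. With the replicate block 5 genes were called in MASH against chow, 6 in C18:1-leucine against C18:1, 10 in C18:1 against chow and 0 in the others. The block turned Pdcd1 to -0.069 and Prf1 to -0.22 in C18:1 against MASH, and Cd3e to -0.092 and Cd4 to -0.10 in C18:1-leucine against MASH. Fits of the compared groups alone filtered out Cd8b1 in MASH against chow, Prf1 in C18:1 against chow and Cd8b1, Pdcd1 and Prf1 in C18:1-leucine against chow. At a few to about 140 counts per gene and library, counting error limits all of these values.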
